A study of Mus musculus with 12 samples.

Results

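Vehicle-treated 4T1 cells carrying sgRNA2 against Cebpd were compared with vehicle-treated 4T1 cells carrying sgRNA1 against the same gene. The comparison uses 4 of the 12 libraries of the series, 2 for each guide, taken from the count columns named for the guide with no mention of IFN-gamma. All 16283 genes of the count table were considered, and 13601 passed the filter on low counts and were tested. 4T1 cells grew out of a BALB/c mammary tumour and stand in for triple-negative breast cancer in mice. The series set cells with Cebpd targeted beside cells with a guide against Rosa26, a locus chosen as a neutral target, with vehicle or with IFN-gamma (interferon gamma) at 20 ng/ml for 24 hours. The groups used here are sgRNA2 in vehicle (genotype labelled Cebpd knockout), sgRNA1 in vehicle (the same genotype label) and, for levels, the Rosa26 control in vehicle. The main fit, which gives the SE and adjusted p, took in all 12 libraries, including the Rosa26 control with vehicle and with IFN-gamma. The 4 libraries of the same guide lines in IFN-gamma serve as a second set that shares no library with the vehicle comparison. All groups come from the same parental line and carry a CRISPR guide. The sources used here do not say whether a line is a clone or a pool, or where in Cebpd each guide cuts.

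The Cebpd product, C/EBPδ, is a bZIP transcription factor; cytokines induce it, and it acts on acute phase and inflammatory genes. A pair of guides against a gene shows what the lines share, and a direct comparison between the guide lines shows where they differ. Several of the gene groups below answer to growth conditions in culture: oxygen acts through the HIF transcription factors on glycolysis and blood vessel genes, growth factors act through ERK and MYC on ribosome production, and E2F factors switch on DNA synthesis genes when cells enter S phase.

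The 4 libraries held 19873018 and 18304354 counts with sgRNA2 and 20221146 and 16912710 with sgRNA1. Levels are CPM (counts scaled to library size, the usual per-million unit), and folds are given as log2 ± SE from the fit. Genes with an adjusted p under 0.05 by edgeR's quasi-likelihood test are said to be called, and every adjusted p below comes from that test unless another is named. Libraries of 1 group correlated at 0.996 to 0.998 (Spearman, across genes). Cytosolic ribosomal protein mRNAs took 13.5% and 14.0% of counts with sgRNA2, 11.7% and 11.7% with sgRNA1, and 8.95% and 9.05% in the Rosa26 control. Mitochondrially encoded mRNAs took 1.07% and 1.08% with sgRNA2, 0.770% and 0.793% with sgRNA1, and 0.636% and 0.588% in the control. The median log2 fold change of exonic length quintiles lay between -0.00 and 0.11. The share of genes called higher with sgRNA2 rose from 26.2% in the shortest quintile to 41.9% in the longest. The share called lower was 24.1% in the shortest, 34.5% in the middle and 25.9% in the longest quintile. For the guide difference in IFN-gamma, the median went from 0.16 in the shortest quintile to -0.08 in the longest. Chromosome medians lay between -0.03 (chromosome 19) and 0.11 (chromosome 1).

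The guide lines differed in vehicle over much of the transcriptome. The fit called 8476 of 13601 genes (62.3%), 4518 higher with sgRNA2 (33.2%) and 3958 lower (29.1%). Of these, 1137 were higher by at least 2-fold (8.36%) and 638 were lower by at least 2-fold (4.69%). The median log2 fold change over all genes was 0.05. These values are the background for every list below, and each list's counts are to be read against 33.2% higher and 29.1% lower. The common biological coefficient of variation between libraries of a group was 4.67%, so small changes passed the test, and sizes are given with the calls. The Rosa26 control's mean lay beyond sgRNA1, on the side away from sgRNA2, in 856 of the 1137 rises and 432 of the 638 falls of at least 2-fold. It lay between the guide lines in 270 rises and 192 falls, and beyond sgRNA2 in 11 rises and 14 falls. These genes were chosen for a large guide difference, which disfavours a control beyond sgRNA2 in advance. The same was not counted over all genes, so these counts are a description only.

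**Figure D1:**
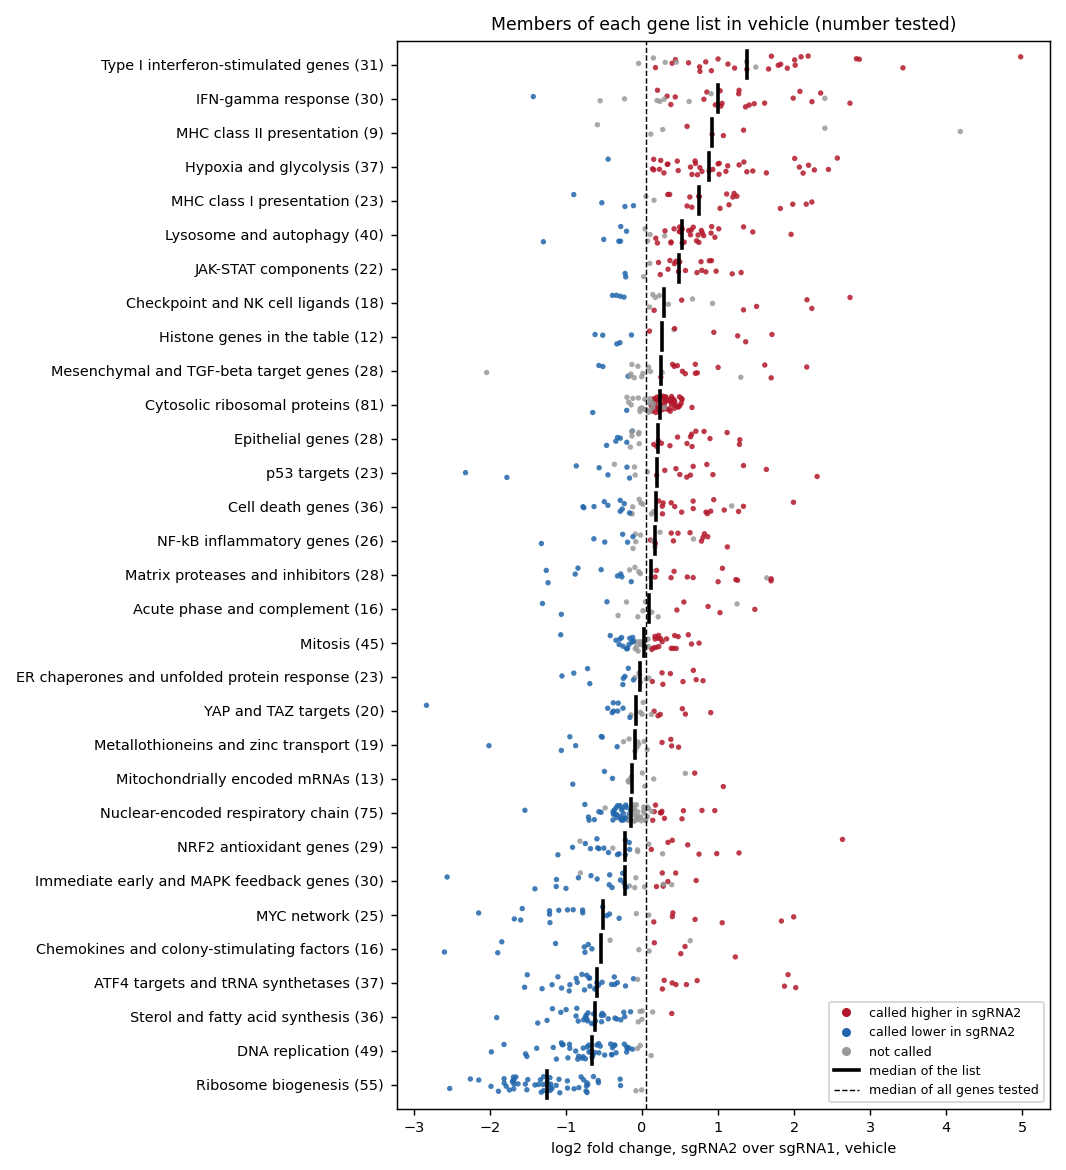
Log2 fold change of sgRNA2 over sgRNA1 in vehicle for every tested member of each gene list with at least 9 tested members; each point is a gene, coloured by its call, the black bar is the list's median and the dashed line the median of all genes (0.05). Type I interferon-stimulated genes sit highest (median 1.37) and ribosome biogenesis genes lowest (median -1.25).

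Cebpd itself was measured at a low level in every vehicle library. It had 10.6 and 8.51 CPM with sgRNA2, against 13.6 and 13.4 CPM with sgRNA1, and the Rosa26 control had 9.09 and 7.13 CPM. Both sgRNA2 libraries lay below both sgRNA1 libraries, and the control lay at the level of sgRNA2 or below it. Cebpd (chromosome 16, 15887286 to 15891031 on GRCm38) fell by 0.50 ± 0.12 on the log2 scale with sgRNA2 relative to sgRNA1 (adjusted p = 0.00135). A gene-level count cannot tell an edited transcript from an intact one. Of the 5 tested C/EBP family genes, Ddit3 rose by 2.02 ± 0.08, while Cebpz changed by -0.85 ± 0.06. Ddit3 encodes CHOP, the stress-induced partner that blocks other C/EBP factors, and Cebpz is a family member in name whose yeast relative takes part in ribosome assembly. Cebpb, a close relative named after its values were seen, was called 0.26 ± 0.07 higher, but without the first sgRNA2 library the difference was 0.08 (adjusted p = 0.349).

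The 12 largest rises with sgRNA2 were in genes of low level in the sgRNA1 line, which choosing the largest folds favours in advance. Prdm1, the transcriptional repressor Blimp-1, had 4.56 and 3.80 CPM with sgRNA2, against 0.302 CPM and no count with sgRNA1, and 0.310 and 0.315 CPM in the control. Its 155 counts with sgRNA2 and 6 counts with sgRNA1 are in a ratio of 25.5, with a 95% interval for counting error of 11.5 to 70.5. The fitted log2 fold change was 4.63 ± 0.61 (adjusted p = 3.27e-06). The sgRNA1 and control libraries all held under 1 CPM of Prdm1. Dbp, a transcription factor that carries the output of the circadian clock, had 21.5 and 21.8 CPM with sgRNA2, against 2.27 and 2.11 CPM with sgRNA1, and 1.91 and 1.73 CPM in the control. It rose by 3.30 ± 0.22 (adjusted p = 5.03e-10), with the sgRNA1 and control lines close together. Adssl1, an adenylosuccinate synthase of the purine nucleotide cycle, had 50.03 and 49.5 CPM with sgRNA2, against 6.04 and 7.30 CPM with sgRNA1, and 2.94 and 3.20 CPM in the control. It rose by 2.91 ± 0.11 and was the most abundant of the 12 largest rises. The other 9 were Tmem8b (3.91), Vill (3.51, a villin-like actin-binding protein), Plch2 (3.11, a phospholipase C), Pyroxd2 (3.10), Zfr2 (3.04), Itga2b (2.97, the platelet integrin alpha IIb), Serpinb8 (2.93, an intracellular serpin), Tcp11l2 (2.93) and Sema6c (2.88, a semaphorin), each as log2 fold change.

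The 12 largest falls with sgRNA2 included 3 ribosome assembly factors, Rrp12, Bysl and Nop2. Trmt61a, the catalytic subunit of a tRNA adenosine methyltransferase, had 4.82 and 4.26 CPM with sgRNA2, against 33.3 and 32.7 CPM with sgRNA1, and 48.2 and 45.6 CPM in the control. It fell by 2.86 ± 0.11 on the log2 scale (adjusted p = 6.02e-13), and its control level lay above both guide lines. Rrp12, a factor of small ribosomal subunit maturation and export, had 6.12 and 6.35 CPM with sgRNA2, against 36.4 and 35.6 CPM with sgRNA1, and 59.1 and 61.8 CPM in the control. Kbtbd8, an adaptor of a CUL3 ubiquitin ligase, had 0.778 and 0.681 CPM with sgRNA2, against 6.64 and 8.27 CPM with sgRNA1, and 9.50 and 7.86 CPM in the control. In each of these genes, named on condition that sgRNA2 lay below sgRNA1, the sgRNA2 libraries also stood far below the control. Aen, a nuclease gene induced by p53, changed by -2.32 ± 0.09, Srm, the spermidine synthase, by -2.15 ± 0.06, Ndufaf4, an assembly factor of respiratory complex I, by -2.23 ± 0.11, and Dph2, of the diphthamide modification of elongation factor eEF2, by -2.24 ± 0.17. Bend3 changed by -2.15 ± 0.14, and the immediate early gene Egr1, given below, is also in the set. Pagr1a, a subunit of histone methyltransferase complexes, had no count and 0.624 CPM with sgRNA2, against 6.80 and 11.95 CPM with sgRNA1, and 0.310 and 0.105 CPM in the control. Its fitted change of -4.93 ± 1.37 passed edgeR's test (adjusted p = 0.00443) but not DESeq2's (adjusted p = 0.0723). It was uneven within a group in IFN-gamma, at 6.98 and 0.118 CPM with sgRNA2.

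**Figure D2:**
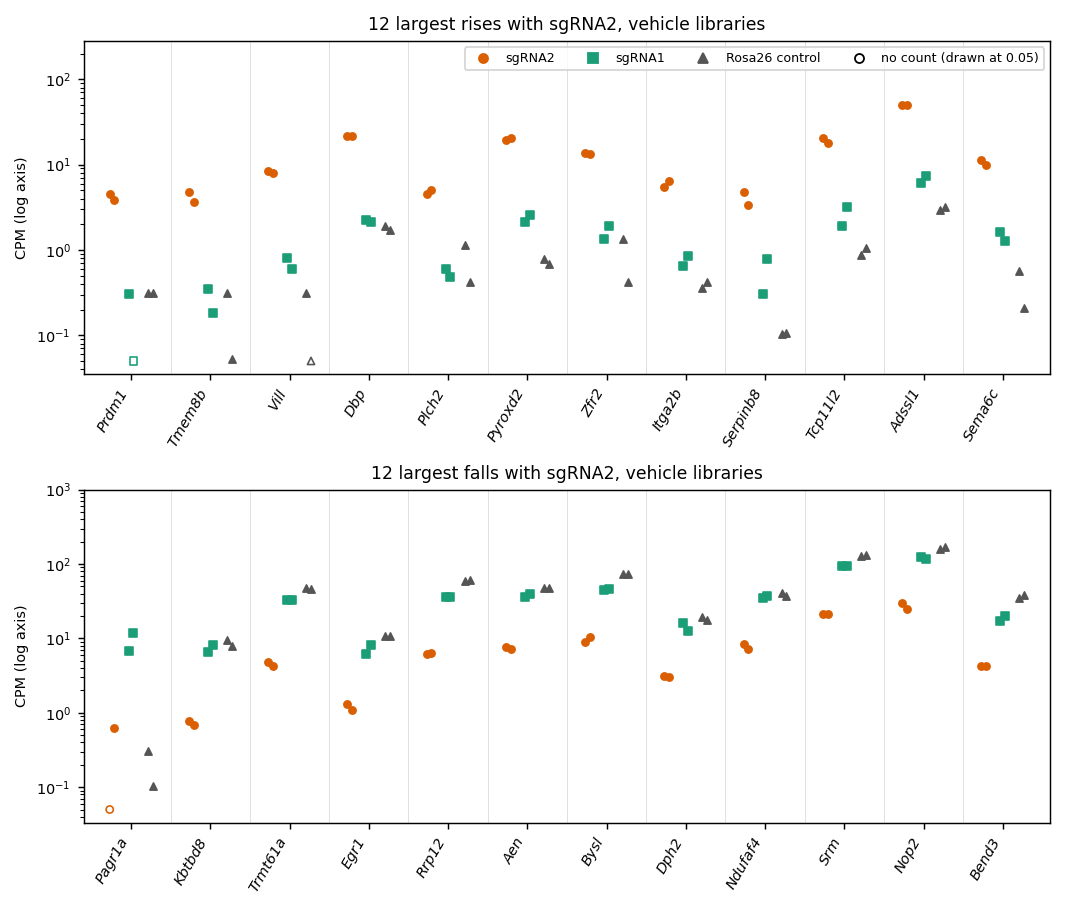
CPM on a log axis in the 6 vehicle libraries (circles sgRNA2, squares sgRNA1, triangles Rosa26 control) for the 12 largest rises and the 12 largest falls with sgRNA2; open symbols at 0.05 mark libraries with no count. The control triangles lie near or below the squares in most rises and near or above them in most falls, as for Adssl1 (sgRNA2 50.03 and 49.5, sgRNA1 6.04 and 7.30, control 2.94 and 3.20 CPM); Pagr1a is an exception.

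Genes of the hypoxia response and of glycolysis were higher with sgRNA2. Of 37 tested members (of 40 listed), 36 were called higher and Hif1a was called lower, with 16 higher by at least 2-fold and a median log2 fold change of 0.88. Together the members of this list took 31722 and 31734 CPM in the sgRNA2 libraries, against 19497 to 19649 CPM with sgRNA1 and 18569 to 18835 CPM in the control. Adm, the vasodilator peptide adrenomedullin, had 86.8 and 82.3 CPM with sgRNA2, against 15.6 and 12.8 CPM with sgRNA1, and 7.28 and 7.29 CPM in the control. It rose by 2.57 ± 0.09 (5.93-fold, adjusted p = 2.35e-13). Aldoc, a glycolytic aldolase, had 128 and 127 CPM with sgRNA2, against 22.9 and 23.7 CPM with sgRNA1, and 13.0 and 12.5 CPM in the control (2.45 ± 0.06). Vegfa, the blood vessel growth factor, had 237 and 229 CPM with sgRNA2, against 50.2 and 52.0 CPM with sgRNA1, and 23.5 and 23.8 CPM in the control (2.19 ± 0.06). In these 3 genes the control lay lowest, while non-overlap of the guide lines was a condition for naming them. Ankrd37, a small ankyrin-repeat protein induced by HIF, rose by 2.26 ± 0.11.

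Not all hypoxia genes put the control below sgRNA1. Ndrg1 and Car9, chosen here after their values were seen, had 1178 and 1162 CPM (Ndrg1) and 189 and 200 CPM (Car9) with sgRNA2, against 266 and 274 CPM (Ndrg1) and 45.3 and 47.5 CPM (Car9) with sgRNA1. Control libraries had 408 and 418 CPM of Ndrg1 and 45.8 and 48.3 CPM of Car9, the carbonic anhydrase that is a common marker of hypoxic tumour cells. Among glycolytic enzymes, also chosen after their values were seen, Pgk1 was higher by 1.01 ± 0.04 and Ldha, lactate dehydrogenase A, by 0.15 ± 0.04, a call lost without the first sgRNA2 library. Hif1a, the mRNA of the oxygen-regulated subunit of HIF-1, had 160 and 162 CPM with sgRNA2, against 214 and 226 CPM with sgRNA1, and 219 and 205 CPM in the control, a fall of 0.45 ± 0.05 on the log2 scale (adjusted p = 6.99e-07). HIF-1α is known to be regulated mainly as a protein, which was not measured. Ddit4 (1.63 ± 0.05), an inhibitor of mTORC1, and Bnip3 (1.46 ± 0.05), a receptor for the removal of mitochondria, belong to the same list and also rose.

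**Figure D3:**
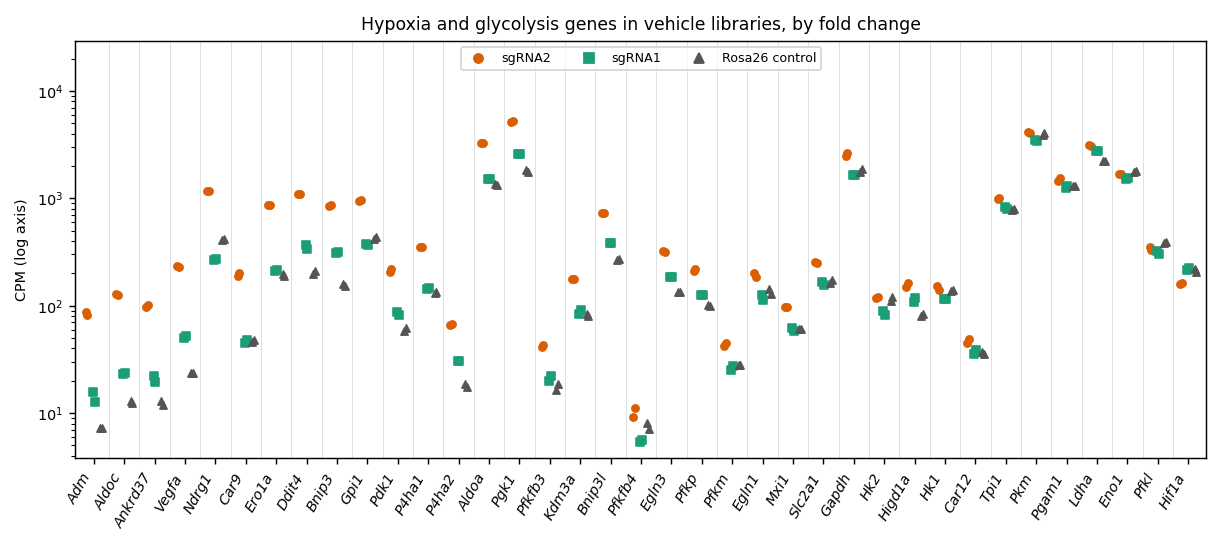
CPM on a log axis of the 37 tested hypoxia and glycolysis genes in the 6 vehicle libraries (circles sgRNA2, squares sgRNA1, triangles Rosa26 control), ordered by fold change. The circles lie on average above the squares in 36 genes, from Adm (86.8 and 82.3 against 15.6 and 12.8 CPM) at the left; Hif1a at the right is the exception.

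Promoters of the leading hypoxia genes are shown because the members moved together and HIF binds a short core. Sequences are 300 bases, 250 before to 50 after the annotated start, from RefSeq on GRCm38.p6, read 5′ to 3′ on the gene's strand. Capitals mark the core ACGTG or GCGTG on either strand, and overlapping matches run together.
Adm, chr7:110627407-110627706 (+): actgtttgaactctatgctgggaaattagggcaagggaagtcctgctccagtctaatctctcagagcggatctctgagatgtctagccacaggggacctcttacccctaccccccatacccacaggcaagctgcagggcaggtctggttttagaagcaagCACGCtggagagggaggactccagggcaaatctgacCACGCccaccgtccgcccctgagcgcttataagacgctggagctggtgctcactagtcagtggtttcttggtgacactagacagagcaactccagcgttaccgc
Aldoc, chr11:78322823-78323122 (+): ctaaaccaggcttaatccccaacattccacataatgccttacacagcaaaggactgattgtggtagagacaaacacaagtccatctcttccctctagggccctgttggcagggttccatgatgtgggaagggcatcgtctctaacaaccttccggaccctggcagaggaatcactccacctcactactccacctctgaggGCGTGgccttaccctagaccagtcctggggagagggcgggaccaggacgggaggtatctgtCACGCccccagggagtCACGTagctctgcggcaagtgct
Adm has matches that begin at -90 and -54 relative to the start, and Aldoc has 1 at -50 and 2 after the start. Of the 35 tested list members with a promoter in the table, 27 held the core (77.1%), against 63.7% of 10026 promoters of tested genes. A core this short is frequent everywhere, and a match is a description of letters, not a site.

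Interferon-stimulated genes formed the second group that was higher with sgRNA2, in cells given no interferon. Of 31 tested type I interferon-stimulated genes, 25 were called higher and 0 lower, with 16 higher by at least 2-fold and a median of 1.37. Type I interferon acts through its receptor and JAK kinases on these antiviral genes. Oas3, an antiviral oligoadenylate synthetase, had 13.2 and 12.3 CPM with sgRNA2, against 1.71 and 1.81 CPM with sgRNA1, and 1.55 and 1.05 CPM in the control. It rose by 2.86 ± 0.13 (adjusted p = 3.38e-12). Rsad2, the antiviral enzyme viperin, had 6.58 and 7.49 CPM with sgRNA2, against 0.604 and 1.45 CPM with sgRNA1, and 0.465 and 0.210 CPM in the control (2.82 ± 0.24). Irf7, the interferon regulatory factor that amplifies the response, had 8.71 and 8.62 CPM with sgRNA2, against 2.01 and 2.05 CPM with sgRNA1, and 0.826 and 0.786 CPM in the control (2.09 ± 0.13). Each was at a low level, and non-overlap of the guide lines was a condition for naming it. The list took 655 to 684 CPM in all with sgRNA2, against 394 to 404 CPM with sgRNA1 and 245 to 246 CPM in the control. Interferon protein was not measured.

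Among 30 tested IFN-gamma response genes, 21 were called higher and 1, Socs1, lower, with a median of 0.99; without the second sgRNA2 library 2 were lower. Nos2, the inducible nitric oxide synthase, had 106 and 107 CPM with sgRNA2, against 21.4 and 20.2 CPM with sgRNA1, and 6.87 and 7.45 CPM in the control. It rose by 2.35 ± 0.06 (5.09-fold, adjusted p = 1.97e-15). Gbp7, Gbp2 and Gbp4, guanylate-binding proteins of cell-autonomous immunity, rose by 1.99 ± 0.18, 1.61 ± 0.12 and 1.47 ± 0.11. Gbp7 had 7.41 and 8.57 CPM with sgRNA2, against 1.56 and 2.54 CPM with sgRNA1, and 1.45 and 0.891 CPM in the control. The Gbp genes have near-identical copies, so their counts are less certain. Socs1, the inhibitor of JAK kinases, had 2.75 and 2.04 CPM with sgRNA2, against 6.34 and 6.70 CPM with sgRNA1, and 10.1 and 10.4 CPM in the control, a fall of 1.43 ± 0.17 on the log2 scale. Its order over the lines is the reverse of that of Nos2. Of 22 tested JAK-STAT components, 18 were higher and 2 lower (median 0.49), with Tyk2, the kinase of the type I receptor, at 1.30 ± 0.10 and Osmr, the oncostatin M receptor, at 1.19 ± 0.10.

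Class I antigen presentation genes were also higher, with 17 of 23 tested genes called higher and 4 lower (median 0.75). H2-T23, which encodes the non-classical class I molecule Qa-1, had 168 and 157 CPM with sgRNA2, against 34.0 and 35.3 CPM with sgRNA1, and 19.1 and 19.6 CPM in the control. It rose by 2.23 ± 0.06 (adjusted p = 2.13e-15). Tap1, the peptide transporter, rose by 2.16 ± 0.08 and Psmb9, an immunoproteasome subunit, by 1.98 ± 0.11. The 4 lower members were Calr, Erap1, Pdia3 and Canx, which encode chaperones and a trimming peptidase of the endoplasmic reticulum; Calr changed by -0.90 ± 0.04. Canx changed by -0.11 ± 0.04 and lost its call under 4 alternatives. Class I genes differ between BALB/c and the reference strain and share sequence with one another, so their counts are less certain. Of 9 tested class II genes, 4 were higher, among them Cd74, the invariant chain, with 10.1 and 9.82 CPM with sgRNA2, against 4.83 and 5.73 CPM with sgRNA1, and 0.517 and 0.734 CPM in the control.

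Promoters of interferon-responsive genes are printed for the same reason as above. Capitals mark the core of the interferon-stimulated response element, TTCNNTTTC, in Oas3 and Rsad2, and the gamma-activated site TTCNNNGAA in Gbp7, on either strand with overlapping matches merged.
Oas3, chr5:120777610-120777909 (-): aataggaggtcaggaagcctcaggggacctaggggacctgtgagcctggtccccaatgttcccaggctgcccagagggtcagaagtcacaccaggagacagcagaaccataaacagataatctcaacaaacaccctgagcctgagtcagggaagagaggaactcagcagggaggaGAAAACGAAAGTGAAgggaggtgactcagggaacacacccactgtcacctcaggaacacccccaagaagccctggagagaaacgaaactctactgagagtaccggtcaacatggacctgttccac
Rsad2, chr12:26456403-26456702 (-): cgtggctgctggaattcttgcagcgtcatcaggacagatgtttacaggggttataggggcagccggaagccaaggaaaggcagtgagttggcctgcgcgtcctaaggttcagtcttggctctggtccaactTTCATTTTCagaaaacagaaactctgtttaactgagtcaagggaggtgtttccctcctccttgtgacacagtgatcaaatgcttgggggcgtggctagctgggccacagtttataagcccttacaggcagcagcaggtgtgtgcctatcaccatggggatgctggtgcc
Gbp7, chr3:142530086-142530385 (+): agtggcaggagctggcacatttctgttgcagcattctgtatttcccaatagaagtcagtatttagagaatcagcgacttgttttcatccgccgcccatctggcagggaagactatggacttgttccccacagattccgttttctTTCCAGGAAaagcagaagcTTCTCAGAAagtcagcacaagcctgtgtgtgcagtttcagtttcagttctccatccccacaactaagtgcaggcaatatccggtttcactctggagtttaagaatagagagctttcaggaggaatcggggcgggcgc
The response element core was present in 15 of 22 type I list promoters (68.2%), against 7.21% of 10026 promoters. The gamma-activated site was present in 9 of 18 IFN-gamma list promoters, against 6.99% of all. The lists were drawn up from genes known to respond to interferon, so the shares describe those lists and not the guide difference.

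Markers of immune cells were looked at beside these genes. Of 10 macrophage and myeloid markers, 5 were in the table, and their summed level was 46.6 to 48.4 CPM with sgRNA2, 27.1 to 29.0 CPM with sgRNA1 and 14.7 to 16.3 CPM in the control. Cd68, a lysosomal glycoprotein, rose by 2.42 ± 0.12 and Csf1r, the receptor for CSF1, by 1.51 ± 0.28, while Cd14 changed by -0.60 ± 0.10. The defining leukocyte gene Ptprc had 14 counts with sgRNA2, 6 with sgRNA1 and 13 in the control over 2 libraries each, and Itgam had 3, 2 and 0, so both were at or near 0 in every group. No lymphocyte marker of 10 was in the table, and 3 of 10 fibroblast markers were, of which Pdgfra, at 28.4 and 28.0 CPM with sgRNA2, against 19.4 and 17.6 CPM with sgRNA1, was called higher. Of 10 endothelial markers 5 were in the table, with 65.8 to 67.1 CPM in all with sgRNA2, 56.2 to 57.1 with sgRNA1 and 49.3 to 50.2 in the control, nearly all from Eng and Egfl7. Of 8 mammary carcinoma markers, 5 were higher and 2 lower; 3 were higher without the first sgRNA2 library, and 1 was lower without the first sgRNA1 library, without the second sgRNA2 library or under upper quartile scaling. Epcam stood at 440 and 425 CPM with sgRNA2, against 276 and 273 CPM with sgRNA1, and Krt18, named after its values were seen, at 1111 and 1106 CPM with sgRNA2, against 923 and 934 CPM with sgRNA1. The 2 lower markers were Cldn7 (-0.32 ± 0.06) and Krt8 (-0.13 ± 0.04). The part of other cells in the interferon genes was not tested beyond these levels.

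Chemokines and colony-stimulating factors went mostly the other way. Of 16 tested genes, 8 were lower and 4 higher with sgRNA2 (median -0.54). Ccl2, the monocyte chemokine, had 7.36 and 8.96 CPM with sgRNA2, against 29.9 and 28.6 CPM with sgRNA1, and 4.03 and 3.93 CPM in the control, a fall of 1.85 ± 0.09 on the log2 scale (adjusted p = 4.59e-12). The sgRNA1 libraries were highest and the control lowest. The control overlapped neither guide line, while non-overlap of the guide lines was a condition for naming the gene. Csf3, the neutrophil growth factor G-CSF that 4T1 tumours are known for, had 79.1 and 76.9 CPM with sgRNA2, against 178 and 165 CPM with sgRNA1, and 176 and 174 CPM in the control, a fall of 1.14 ± 0.05. For Csf3 it was the sgRNA2 line that stood apart. Ccl20 fell by 1.90 ± 0.23 and Csf2, GM-CSF, by 0.76 ± 0.19, while Ccl5, a chemokine for T cells, rose by 1.23 ± 0.11. Of 26 tested NF-kB inflammatory genes, 12 were higher and 6 lower (median 0.17), and the higher count was 6 without the second sgRNA2 library and the lower count 3 without the first sgRNA1 library. Icam1 rose by 1.12 ± 0.15 and Ptgs2, cyclooxygenase 2, fell by 0.63 ± 0.05. Of 16 tested acute phase and complement genes, a class that C/EBP factors are known to act on, 5 were higher and 3 lower; C3 had 261 and 256 CPM with sgRNA2, against 89.0 and 96.3 CPM with sgRNA1, and 70.7 and 69.7 CPM in the control (1.48 ± 0.05).

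Ribosome biogenesis factors were lower with sgRNA2. Of 55 tested factors, 53 were called lower with sgRNA2 and 0 higher, 37 of them by at least 2-fold, with a median of -1.25. Polr1c and Las1l, the 2 not called and named after their values were seen, changed by -0.08 and -0.01. The list summed to 4990 to 5108 CPM with sgRNA2, against 9201 to 9275 CPM with sgRNA1 and 10584 to 10891 CPM in the control. Nop2, a nucleolar rRNA methyltransferase, had 29.6 and 24.9 CPM with sgRNA2, against 124 and 117 CPM with sgRNA1, and 158 and 167 CPM in the control (-2.15 ± 0.07, adjusted p = 6.77e-14). Nolc1, a nucleolar phosphoprotein, had 40.5 and 39.1 CPM with sgRNA2, against 161 and 155 CPM with sgRNA1, and 251 and 261 CPM in the control (-1.99 ± 0.05). Bysl had 8.81 and 10.5 CPM with sgRNA2, against 45.4 and 46.8 CPM with sgRNA1, and 72.6 and 74.5 CPM in the control (-2.26 ± 0.08). Control was highest in all 3, while non-overlap of the guide lines was a condition for naming these genes.

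The mRNAs of the ribosome's own proteins did not follow the biogenesis factors. Of 81 tested cytosolic ribosomal protein genes, 56 were called higher with sgRNA2 and 2 lower, none by 2-fold, with a median of 0.23. Fau, which encodes a fusion of a ubiquitin-like peptide and a small subunit protein, had 2194 and 2178 CPM with sgRNA2, against 1419 and 1356 CPM with sgRNA1, and 1031 and 1031 CPM in the control (0.66 ± 0.05, adjusted p = 3.82e-09). Rpl17 rose by 0.53 ± 0.05. The 2 called lower were Rps27l, a p53-responsive paralog (-0.65 ± 0.07), and Rpl30 (-0.20 ± 0.09), whose call was lost under 7 alternatives. In the fits on the 4 and on the 6 vehicle libraries, 4 members were called lower. Ribosomal protein genes have many processed copies, so their counts are less certain.

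The MYC network, known to drive ribosome production, was lower in part. Of 25 tested genes, 16 were lower, 8 of them by at least 2-fold, and 7 were higher (median -0.52). Myc, named after its values were seen, had 73.9 and 72.5 CPM with sgRNA2, against 157 and 156 CPM with sgRNA1, and 205 and 197 CPM in the control (-1.10 ± 0.05). Odc1, ornithine decarboxylase and a direct MYC target, had 384 and 400 CPM with sgRNA2, against 1153 and 1184 CPM with sgRNA1, and 1157 and 1125 CPM in the control (-1.58 ± 0.04, adjusted p = 4.78e-15). For Odc1 the sgRNA1 line and the control were alike in level. Srm (-2.15 ± 0.06) and Nme1, a nucleoside diphosphate kinase (-1.68 ± 0.06), fell as well. The higher members included Mycl, a MYC paralog (1.05 ± 0.21), and genes that oppose MYC. Mxd1 had 14.7 and 15.5 CPM with sgRNA2, against 4.08 and 3.44 CPM with sgRNA1, and 6.51 and 4.19 CPM in the control (1.99 ± 0.16). Mxd4 rose by 1.83 ± 0.10 and Mxi1 by 0.70 ± 0.05; both pair with MAX in place of MYC.

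DNA replication genes were lower in 46 of 49 tested members and higher in 0, with 10 lower by at least 2-fold and a median of -0.66. Ccne1, cyclin E1, which drives entry into S phase, had 4.93 and 5.96 CPM with sgRNA2, against 21.1 and 21.8 CPM with sgRNA1, and 19.3 and 17.3 CPM in the control (-1.98 ± 0.13, adjusted p = 3.81e-10). Ccne2 had 24.6 and 24.9 CPM with sgRNA2, against 84.6 and 89.9 CPM with sgRNA1, and 75.2 and 70.9 CPM in the control (-1.82 ± 0.08). Rrm2, the ribonucleotide reductase subunit of S phase, had 102 and 103 CPM with sgRNA2, against 305 and 287 CPM with sgRNA1, and 297 and 297 CPM in the control (-1.53 ± 0.05). In these genes, named on condition that sgRNA2 lay below sgRNA1, the sgRNA2 libraries lay below the control as well. Genes of mitosis were split, with 19 of 45 higher, 14 lower (9 under upper quartile scaling) and a median of 0.02. Cdc25c, the phosphatase that activates CDK1, rose by 0.75 ± 0.08 and Cdk1 itself fell by 0.30 ± 0.04. Mybl2, which acts on late cell cycle genes and is itself an E2F target, was the 1 member lower by at least 2-fold (-1.07 ± 0.08). E2F sites were searched as TTTCGCGC, TTTCCCGC, TTTGGCGC and TTTGCCGC on either strand, and 14 of 40 replication gene promoters held 1 (35.0%), against 4.21% of 10026 promoters. That share describes the list of replication genes and not the guide difference. Orc1, the largest subunit of the origin recognition complex, is printed as an example, chosen after its values were seen, with the match at -27 in capitals.
Orc1, chr4:108579204-108579503 (+): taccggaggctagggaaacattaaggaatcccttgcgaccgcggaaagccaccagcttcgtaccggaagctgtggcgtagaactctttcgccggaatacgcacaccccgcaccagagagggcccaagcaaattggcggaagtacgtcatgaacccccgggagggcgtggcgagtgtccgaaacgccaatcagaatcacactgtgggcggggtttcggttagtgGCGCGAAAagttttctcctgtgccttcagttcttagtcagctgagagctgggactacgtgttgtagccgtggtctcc
Orc1 itself had 21.9 and 20.6 CPM with sgRNA2, against 42.9 and 45.9 CPM with sgRNA1, and 48.2 and 45.8 CPM in the control.

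Of 36 tested genes of sterol and fatty acid synthesis, 30 were lower with sgRNA2 and 1, Acss2, was higher (0.39 ± 0.08), with a median of -0.62. Under upper quartile scaling, and under a mean of at least 2 CPM, 2 members were called higher. Hsd17b7, an enzyme of cholesterol synthesis, had 6.95 and 8.62 CPM with sgRNA2, against 30.3 and 28.1 CPM with sgRNA1, and 41.7 and 42.1 CPM in the control (-1.91 ± 0.11, adjusted p = 6.1e-11). Idi1, of the isoprenoid steps, had 153 and 160 CPM with sgRNA2, against 400 and 410 CPM with sgRNA1, and 418 and 379 CPM in the control (-1.37 ± 0.05). Fasn, fatty acid synthase, had 158 and 152 CPM with sgRNA2, against 361 and 341 CPM with sgRNA1, and 778 and 815 CPM in the control (-1.18 ± 0.05). Fasn thus differed among all 3 lines, whereas Idi1 set the sgRNA2 line apart from the other lines. A strict sterol regulatory element, TCACNCCAC on either strand, was found in 1 of 26 list promoters (3.85%), against 1.01% of all.

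Genes of amino acid supply and stress went both ways. Of 37 tested ATF4 targets and tRNA synthetases, 27 were lower and 9 higher (median -0.59). The lower ones included Slc1a5, the glutamine transporter, with 24.6 and 21.3 CPM with sgRNA2, against 69.7 and 64.5 CPM with sgRNA1, and 101 and 93.4 CPM in the control (-1.54 ± 0.08), and the mitochondrial one-carbon enzymes Mthfd2 (-1.51 ± 0.07) and Shmt2 (-1.32 ± 0.05). The higher ones included Ddit3, with 41.1 and 43.0 CPM with sgRNA2, against 9.92 and 10.9 CPM with sgRNA1, and 9.14 and 10.3 CPM in the control (2.02 ± 0.08, adjusted p = 5.91e-13), and Vldlr, a lipoprotein receptor (1.92 ± 0.17). The amino acid response element TGATGNAAN was found on either strand in 12 of 31 promoters of this list (38.7%), against 2.17% of all. It was in 4 of 9 promoters of higher members and 8 of 21 of lower members. The list holds known ATF4 targets, so the share describes the list and not the guide difference. Endoplasmic reticulum chaperones and unfolded protein response genes were split, with 8 of 23 higher and 9 lower. Of 29 NRF2 antioxidant genes, 15 were lower and 8 higher; Ephx1, epoxide hydrolase, rose by 2.64 ± 0.17 and Slc7a11, the cystine transporter, fell by 1.11 ± 0.15. Of 23 p53 targets, 12 were higher and 7 lower, from Trp53inp1 (2.30 ± 0.13) to Aen (-2.32 ± 0.09).

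Of 75 nuclear-encoded respiratory chain genes, 33 were lower with sgRNA2 and 11 higher (median -0.15; 6 higher without the second sgRNA2 library), and Cycs, cytochrome c, fell by 1.54 ± 0.07. Mitochondrially encoded mRNAs were called higher in 2 and lower in 3 of 13. In the fits on the 4 and on the 6 vehicle libraries, 5 were called lower. With library totals only, with no low-count filter and with gene length offsets, 5 were lower as well. DESeq2 called 1 higher, and the counts also moved when single libraries were left out. The mitochondrially encoded mRNAs summed to 10971 to 11204 CPM with sgRNA2, 7833 to 8089 CPM with sgRNA1 and 5931 to 6428 CPM in the control. Of these sums mt-Co1 had 6763 and 6711 CPM with sgRNA2, against 3153 and 3275 CPM with sgRNA1, and 2194 and 1971 CPM in the control (1.07 ± 0.05). Of 40 lysosome and autophagy genes, 30 were higher and 6 lower (median 0.52). Calcoco1, an autophagy receptor, rose by 1.96 ± 0.10, while Gusb, beta-glucuronidase, fell by 1.30 ± 0.06.

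Immediate early and MAPK feedback genes were lower in 16 of 30 tested members and higher in 6 (median -0.23). The list summed to 1994 to 2086 CPM with sgRNA2, 1999 to 2053 CPM with sgRNA1 and 2259 to 2318 CPM in the control. ERK signalling itself was not tested. Egr1 had 1.30 and 1.08 CPM with sgRNA2, against 6.19 and 8.03 CPM with sgRNA1, and 10.9 and 10.9 CPM in the control (-2.56 ± 0.22, adjusted p = 1.05e-08). Spry4, a feedback inhibitor of receptor tyrosine kinase signalling, fell by 1.41 ± 0.20 and Fosl1, an AP-1 subunit, by 1.13 ± 0.06. Junb went the other way, with 499 and 452 CPM with sgRNA2, against 303 and 278 CPM with sgRNA1, and 251 and 249 CPM in the control (0.71 ± 0.05). Fosl2 (0.44 ± 0.06), Dusp1 (0.34 ± 0.12) and Ier3 (0.28 ± 0.05) rose as well. Of 20 YAP and TAZ targets, 9 were lower and 6 higher (median -0.08).

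Epithelial and mesenchymal genes both had more members higher than lower, as had all genes tested (33.2% higher, 29.1% lower). Of 28 tested epithelial genes 16 were higher and 6 lower (median 0.20). Of 28 tested mesenchymal and TGF-beta target genes 13 were higher and 3 lower (median 0.25). In this mesenchymal list 5 were lower in the fits on the 4 and on the 6 vehicle libraries. Its lower count also moved without the first sgRNA2 library. Krt19, a simple epithelial keratin, had 269 and 269 CPM with sgRNA2, against 117 and 104 CPM with sgRNA1, and 97.6 and 96.9 CPM in the control (1.28 ± 0.05, adjusted p = 5.3e-13). Id2, an inhibitor of basic helix-loop-helix factors, rose by 1.61 ± 0.14. Of 28 matrix proteases and inhibitors, 12 were higher and 9 lower: Adam8 rose by 1.70 ± 0.06, and Plaur, the urokinase receptor, fell by 1.24 ± 0.06. Of 36 cell death genes, 17 were higher and 10 lower, with Bmf, a BH3-only protein, at 1.99 ± 0.14 and the death receptor Fas at 1.33 ± 0.09. Of 18 checkpoint and NK cell ligands, 7 were higher and 4 lower; Vsir, the checkpoint molecule VISTA, rose by 2.17 ± 0.16. Of 12 histone genes, 6 were higher and 5 lower, with the linker histone H1f0 at 3645 and 3464 CPM with sgRNA2, against 1538 and 1437 CPM with sgRNA1, and 1041 and 1031 CPM in the control (1.26 ± 0.05). Of 19 metallothionein and zinc transport genes, 7 were lower and 4 higher, and Slc30a1, the zinc exporter, fell by 2.01 ± 0.21.

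The same guide lines in IFN-gamma gave the same contrast in other libraries. There the fit called 6518 genes (47.9%), 3182 higher with sgRNA2 (23.4%) and 3336 lower (24.5%). Across 13601 genes the guide difference in vehicle and that in IFN-gamma had a Pearson correlation of 0.46 and a Spearman correlation of 0.52; genes are not independent and no p is given. Of the genes called in either treatment, 4147 were called in both with the same direction, which is 48.9% of the vehicle calls and 63.6% of the IFN-gamma calls, and 787 were called in both with opposite directions. Of the 1137 rises of at least 2-fold in vehicle, 500 were called in the same direction in IFN-gamma and 26 in the other, and their median log2 fold change was 0.51 there, against 1.45 in vehicle. Of the 638 falls, 449 were called in the same direction and 4 in the other, and their median was -0.54 in IFN-gamma, against -1.28 in vehicle. Both sets were chosen for a large difference in vehicle, which favours a smaller one in IFN-gamma in advance, so the medians are a description. The test of the difference itself called 5820 genes (42.8%), 2836 with a more positive guide difference in IFN-gamma (20.9%) and 2984 with a more negative one (21.9%).

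The hypoxia and glycolysis list had a median treatment difference of -0.96. Its median guide difference was 0.01 in IFN-gamma, with 15 of 37 members higher and 17 lower, and the difference between treatments was called negative in 36 members and positive in 1. Adm had 7.95 and 7.93 CPM with sgRNA2 in IFN-gamma, against 6.51 and 6.31 CPM with sgRNA1, so its log2 fold change of 2.57 in vehicle stood beside 0.31 there. Of 31 type I interferon-stimulated genes, 20 were higher and 3 lower there, with a median of 0.31, and the treatment difference was called negative in 23. Ribosome biogenesis factors were lower in 46 of 55 (median -0.44) with the difference called positive in 51, and DNA replication in 24 of 49, with 9 higher. Ribosomal protein mRNAs were higher in 78 of 81 in IFN-gamma with a median of 0.60, and the treatment difference was called positive in 69 of them. Immediate early genes were lower in 24 of 30 (median -0.71): Egr1 had 0.913 and 1.30 CPM with sgRNA2 in IFN-gamma, against 14.5 and 13.9 CPM with sgRNA1, and Junb was 0.98 lower on the log2 scale, opposite to vehicle. Cebpd was lower with sgRNA2 in IFN-gamma by 0.62 ± 0.09 (adjusted p = 1.27e-05), and its treatment difference of -0.12 ± 0.15 was not called (adjusted p = 0.549).

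**Figure D4:**
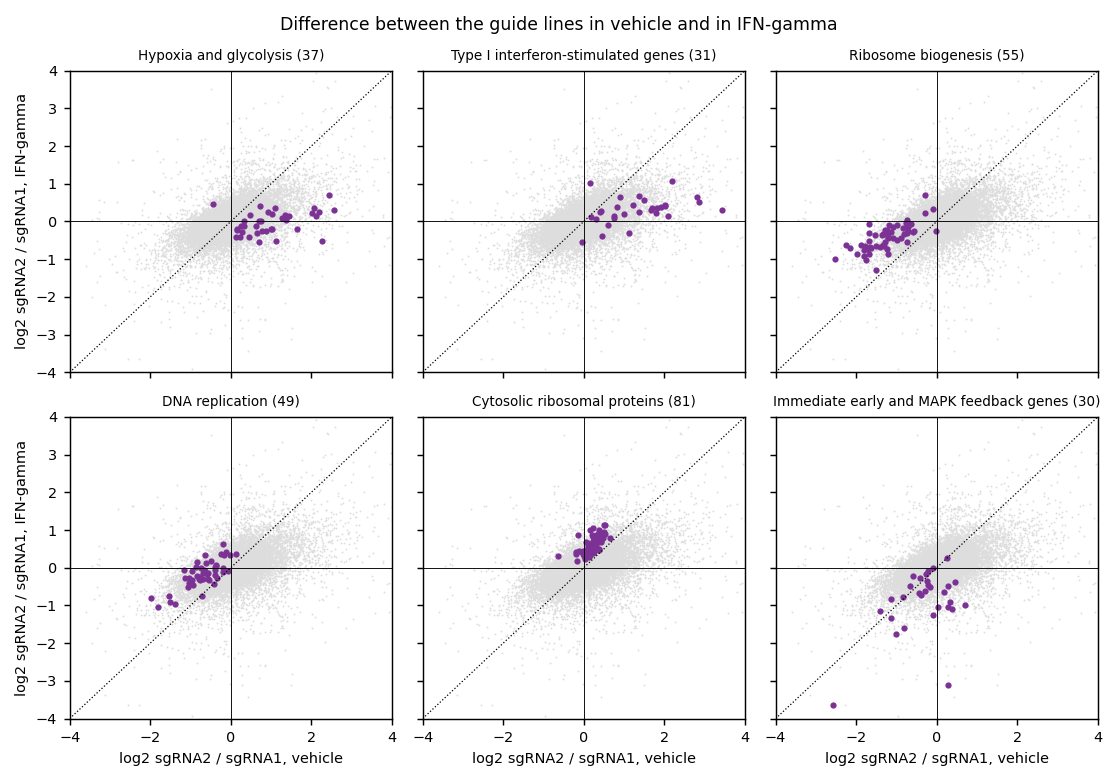
Log2 fold change of sgRNA2 over sgRNA1 in vehicle (x axis) and in IFN-gamma (y axis) for members of 6 lists (dark points) over all tested genes (grey), with the dotted line marking equal values; 37 genes lie outside the axes, among them Ifit3b of the type I list. Hypoxia genes spread along the x axis near 0 in IFN-gamma (median 0.01), ribosome biogenesis genes lie mostly in the lower left quadrant, and ribosomal protein genes lie mostly above the dotted line (median 0.23 in vehicle, 0.60 in IFN-gamma).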

How the data were processed

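The deposited table holds raw counts of reads per gene as whole numbers, 1 column per library. Per the submitters' processing notes, STAR 2.4.0, HTSeq, DESeq2 1.10 and the build mm10 were used, with no role given for each. The sources used here give neither the annotation nor the strand setting. An Illumina TruSeq RNA kit was used on total RNA, per the labels' protocols. That kit does not mark strand, so reads of overlapping antisense genes cannot be told apart. No label ties the libraries of a group to separate cultures, so p-values measure only the spread between them, which may be technical.

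Genes were kept with filterByExpr (minimum count 10, minimum total 15), which left 13601 of 16283 genes and 99.965% of counts. edgeR 4.0.16 in R 4.3.3 was run with TMM scaling on all 12 libraries with 1 coefficient per group for 6 groups (6 residual degrees of freedom), with Benjamini-Hochberg adjustment over all genes tested. CPM values use the TMM-scaled sizes. The SE is the fold change divided by the root of its F statistic, so it restates the test. For genes with few counts, a ratio of summed counts has an exact 95% interval, which covers counting error only. Fits were tested on simulated data. Of the table's names, 15941 matched GENCODE vM21 (GRCm38, the assembly of mm10) and 223 matched through a synonym. Promoters came from RefSeq, 1 per gene, and 10026 tested genes had one.

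The genes and lists were chosen with earlier results of these data known. Genes named are Cebpd, the 12 largest rises and falls, and per list up to 4 rises and 4 falls, among called genes that averaged 2 CPM or more in the 4 libraries and did not overlap between lines, predicted genes left out. Others named are said to be chosen after their values were seen. Lists are described by counts and medians, with no set test. The replicate numbers do not pair samples: deviations of same-numbered libraries from the group means correlated at -0.08 to 0.06. No libraries agreed within sampling noise (chi-square per degree of freedom 2.77 to 7.27). Alternatives were other scalings, filters, fits on fewer libraries, a replicate block, gene length offsets, DESeq2 1.42.0 and leaving out each library.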

Additional observations from a re-analysis of the deposited data

Results flagged for a closer look

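For the 5 largest rises and 5 largest falls, the guide difference in IFN-gamma was tested against that in vehicle, and 9 of these 10 were called by edgeR's quasi-likelihood test on that difference, beside 42.8% of all genes. The 10 were chosen as extremes of the vehicle folds that enter this difference, which favours a value closer to 0 in IFN-gamma in advance, so nothing is read from the count and the values are a description. On the log2 scale the guide difference in IFN-gamma minus that in vehicle was -5.16 for Prdm1 (adjusted p = 5.69e-05), -2.60 for Tmem8b (adjusted p = 0.0117), -2.08 for Vill (adjusted p = 0.0044), -1.30 for Dbp (adjusted p = 0.0103) and -1.98 for Plch2 (adjusted p = 0.0209). Prdm1 had 1.504 and 0.510 CPM with sgRNA2 in IFN-gamma, against 1.64 and 1.14 CPM with sgRNA1, and was not called there (-0.53, adjusted p = 0.393). Among the falls it was 1.73 for Kbtbd8 (adjusted p = 0.0011), 1.52 for Trmt61a (adjusted p = 5.67e-07) and 1.53 for Rrp12 (adjusted p = 1.31e-08). For Egr1 it was -1.08, a wider guide difference in IFN-gamma (adjusted p = 0.0119). For Pagr1a the change of 4.45 ± 1.78 was not called (adjusted p = 0.0522).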

How the results depend on the processing

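The count of 8476 genes called in vehicle ranged over the alternatives from 7413 without the first sgRNA1 library to 8514 with upper quartile scaling, with 7668 in DESeq2, 8332 in a fit on the 4 libraries alone and 8460 with the replicate block, which here only shares a number. Rises of at least 2-fold numbered 748 under a mean of at least 2 CPM (11263 genes tested), against 1137. In the main fit, 729 of the 1137 rises and 517 of the 638 falls of at least 2-fold averaged 2 CPM or more. Genes of low level thus made up more of the rises than of the falls. Without 1 library, the NF-kB genes called higher numbered 6 to 10, against 12. With upper quartile scaling the all-gene median was 0.11 and 59.1% of calls were higher, against 53.3%. Of the genes named in the text, 2 that were not called changed sign near 0: Eng was at 0.016 under upper quartile scaling, and Las1l at 0.057 under that scaling, at 0.017 under the mean of at least 2 CPM and at -0.041 to 0.024 without 1 library. Polr1c was called lower in the fits on 4 and on 6 vehicle libraries (-0.12 and -0.13). Calls were lost for Pagr1a, Canx, Rpl30 and Cebpb as given above, for Ldha without the first sgRNA2 library (0.10), and in IFN-gamma for Tmem8b (DESeq2) and Plch2 (DESeq2 and the replicate block). With matches limited to 150 bases before the start, promoter shares were 45.5% for the type I list, against 3.28% of all promoters, 17.5% for the replication list, against 2.34%, 22.6% for the ATF4 list, against 1.15%, and 71.4% for the hypoxia list, against 44.3%. With 2 libraries a group and a spread shared over 6 groups, genes near the floor of 3 counts per library (0.151 to 0.181 CPM) are poorly measured.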

Other observations

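Dbp, among the largest rises, led to a look at the circadian clock, and the 20 genes of this set were written down after its values had been seen, so they give a description only. Of the 17 tested, 13 were called higher with sgRNA2, 8 of them by at least 2-fold, and 2 lower, beside 33.2% and 29.1% of all genes, with a median log2 fold change of 0.83. Per3, a period gene, had 33.3 and 33.9 CPM with sgRNA2, against 9.11 and 7.06 CPM with sgRNA1, and 11.7 and 9.54 CPM in the control (2.05 ± 0.15). Nr1d1, which encodes the repressor REV-ERBα, rose by 1.44 ± 0.11, Per1 by 1.46 ± 0.08 and Bhlhe41 by 1.89 ± 0.08. Clock changed by -0.29 ± 0.06 and Ciart, another clock-driven repressor, by -1.02 ± 0.19. In IFN-gamma 6 of the 17 were higher and 3 lower, beside 23.4% and 24.5% of all genes. The difference between treatments was called positive in 0 and negative in 11, beside 20.9% and 21.9% of all genes. No harvest time was used here.

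Among genes noted after their values were seen, Csf1r rose with sgRNA2 in vehicle, at 7.52 and 9.02 CPM, against 3.73 and 1.99 CPM with sgRNA1, and 0.775 and 0.734 CPM in the control, and Il34, a ligand of this receptor, rose by 0.56 ± 0.11. Col1a1, a fibrillar collagen, had 3.89 and 3.97 CPM with sgRNA2, against 1.21 and 1.21 CPM with sgRNA1, and 0.103 and 0.262 CPM in the control (1.70 ± 0.32). Both were low in all libraries.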
